A study of Homo sapiens with 5 samples.

Results

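The ID and TGIF transcription regulators comprise 6 genes, ID1, ID2, ID3, ID4, TGIF1 and TGIF2, taken by name out of 64440 annotated genes (20162 of them protein-coding). They were examined for binding of PHF8, a Jumonji C histone demethylase, by chromatin immunoprecipitation and sequencing (ChIP-seq) in SKMEL-147 cells, an established line from human melanoma. The labels describe 3 PHF8 ChIP samples (A, B1 and B2) from crosslinked cells and 2 input samples (A and B) without antibody, and they name no genotype, treatment or time. The design text mentions a PHF8 loss-of-function model made with guide RNAs in the same line, but no label assigns any of these samples to it. All 3 ChIP samples share 1 cell line and 1 antibody, ab36068, so no condition could be compared, and nothing in the labels says whether they came from separate cultures, so the spread between them may be technical. B1 and B2 share a letter in the labels, with a single input B beside them, and may be less independent of each other than of A, so n = 3 counts ChIP samples and values are given for each. A stood apart, where log2 fold enrichment exceeded the mean of B1 and B2 by a median of 0.80 over all genes with a promoter peak in every ChIP sample. The values below are from the peak lists of the ChIP samples. Peak lists hold no expression, so the melanoma identity of the cells was not checked against marker genes.

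ID proteins are small helix-loop-helix proteins that lack a DNA-binding region. They pair with E proteins, the broadly expressed basic helix-loop-helix (bHLH) factors, and keep them from binding DNA. Their genes are classic targets of bone morphogenetic protein (BMP) signaling through SMAD proteins, and TGFβ is known to lower several of them in epithelial cells. TGIF1 and TGIF2 are homeodomain proteins of the TALE class that bind SMAD2 and SMAD3 and recruit corepressors, which restrains TGFβ-driven transcription. PHF8 removes repressive methyl marks from histone tails and is anchored by a PHD finger to a methylated lysine of histone H3 that marks active promoters. The question for these genes was therefore whether and at which of their transcription start sites (TSSs) PHF8 was found.

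The sequences upstream of the starts are shown first, so that the motifs counted for them can be seen. The 150 bases upstream of the outermost start of a group of starts are given 5′ to 3′ on the strand of the gene, in the GRCh37 sequence (the same build as the hg19 of the peak lists). Capitals mark matches to 6 short motifs on either strand, namely GGCGCC (bound by BMP SMADs), CAGAC (bound by SMAD3 and SMAD4), TGTCA (the core bound by TGIF and related homeodomains), CANNTG (the E-box of bHLH factors), TGACG (part of the cAMP response element) and TATAA (the core of the TATA box). Overlapping matches run together. The stretches lie at chr20:30192936-30193085 for ID1, chr2:8818825-8818974 for the outer start of ID2, chr1:23885993-23886142 for ID3 (minus strand), chr6:19837451-19837600 for ID4, chr18:3449261-3449410 for TGIF1 and chr20:35201741-35201890 for TGIF2. In TGIF1 this stretch ends at the outermost start, 3449411, of the group with the strongest peaks. The strongest summits lay beyond the innermost start of that group, 3450210, and in B1 no peak overlapped the stretch, so it is not the sequence under those summits.
ID1: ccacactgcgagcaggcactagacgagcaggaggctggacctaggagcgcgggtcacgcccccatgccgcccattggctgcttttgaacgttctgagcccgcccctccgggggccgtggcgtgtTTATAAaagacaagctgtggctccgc
ID2: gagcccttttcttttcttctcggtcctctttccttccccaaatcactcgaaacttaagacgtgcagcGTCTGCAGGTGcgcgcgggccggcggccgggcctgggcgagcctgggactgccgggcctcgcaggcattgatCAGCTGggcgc
ID3: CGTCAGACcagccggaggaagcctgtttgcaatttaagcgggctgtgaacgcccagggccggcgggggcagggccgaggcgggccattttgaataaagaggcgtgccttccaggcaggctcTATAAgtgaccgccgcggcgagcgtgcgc
ID4: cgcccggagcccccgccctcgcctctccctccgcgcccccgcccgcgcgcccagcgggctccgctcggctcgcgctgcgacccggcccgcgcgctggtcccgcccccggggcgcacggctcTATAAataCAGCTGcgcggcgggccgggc
TGIF1: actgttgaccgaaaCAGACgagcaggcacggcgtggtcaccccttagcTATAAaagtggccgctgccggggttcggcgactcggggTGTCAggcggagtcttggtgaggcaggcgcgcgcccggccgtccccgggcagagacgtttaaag
TGIF2: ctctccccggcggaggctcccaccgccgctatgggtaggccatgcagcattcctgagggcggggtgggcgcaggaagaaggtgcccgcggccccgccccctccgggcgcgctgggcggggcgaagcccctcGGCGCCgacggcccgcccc

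ID1, ID3 and ID4 each carried TATAA close to the start, at bases -25 to -21 in ID1 (overlapping a match on the other strand at -26 to -22) and at -29 to -25 in ID3 and in ID4, where -1 is the base next to the start. The search for TATAA was added after these sequences had been seen. Starts of a gene less than 500 bp apart were grouped into TSS clusters, and TATAA lay between 35 and 20 bases upstream on the strand of the gene in 3 of the 12 member clusters with a peak in every replicate. The same held for 1.42% of the 16363 clusters of protein-coding genes with such a peak and for 2.34% of all 69701. The other motifs were counted over the whole upstream stretch. Among the 9 member clusters with a summit of their own in every replicate, GGCGCC was found at 1 (TGIF2), CAGAC at 3, TGTCA at 1, the E-box at 3 and TGACG at 1, and TATAA anywhere in the stretch at 4. Over all clusters of protein-coding genes, the same upstream stretch held these motifs in 6.51%, 24.8%, 25.3%, 49.7%, 10.5% and 17.2% of cases, respectively. Whether the counts over the 9 clusters differ from these shares was not tested. A match is a description of the letters and not a site.

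PHF8 was found at all 6 genes. Each had a peak overlapping the 1 kb flanks of a TSS in A, B1 and B2, against 60.2% of all protein-coding genes. The lists held 21506, 20882 and 20120 peaks, with a median of 54, 39 and 40 ChIP fragments at the summit and a minimum of 8, 8 and 10, and binding below that depth was not detectable. Fold enrichment is the ratio of ChIP fragments at the summit to the local background, and it ran higher in A, so each gene was ranked within its own list. The percentile of a gene is the share of all 16541 genes with a promoter peak in every replicate whose strongest promoter peak had a lower fold enrichment. The median of the 6 mean percentiles was 27.2, and 5 of the 6 genes lay below the 50th percentile. The members thus had a peak in every list, of mostly modest size for a PHF8 promoter peak. Their median percentile was 22.3, 35.1 and 29.6 in the lists of A, B1 and B2. The median fold enrichment of all target genes was 32.4, 18.8 and 17.7. In merged regions (peaks that overlap between replicates), 10 of the 17 regions in the windows of the members had a peak in all replicates, 3 in 2 replicates and 4 in 1, against 73.7% of 21804 regions with a peak in all.

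**Figure D1:**
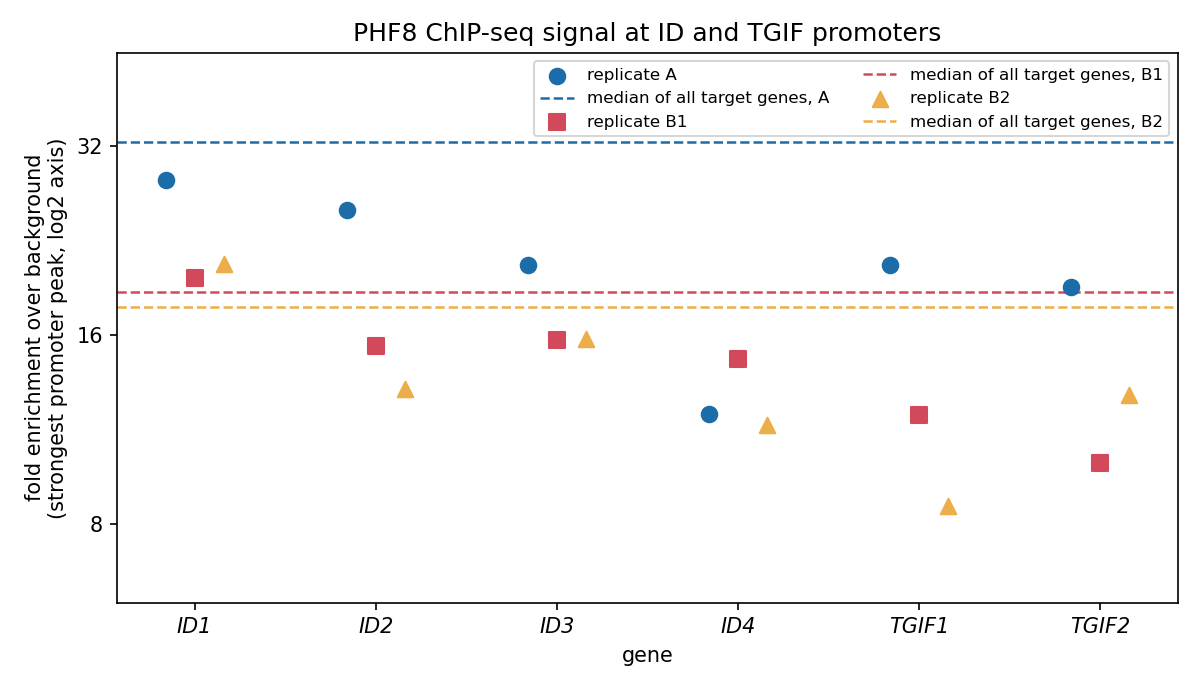
Fold enrichment over background of the strongest promoter peak of each gene (log2 axis) in replicates A, B1 and B2, with a dashed line at the median of all 16541 target genes of the same replicate. ID1 has the highest point of each replicate, at 28.3, 19.7 and 20.8. Only its points in B1 and B2 lie above the line of their replicate, and all other points, of ID and TGIF genes alike, lie below theirs.

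ID1, an inhibitor of E proteins that is induced by BMP, had the strongest peak of the group (ENSG00000125968, chromosome 20, 30193086 to 30194318, plus strand). Fold enrichment reached 28.3, 19.7 and 20.8 in replicates A, B1 and B2. The summit held 103, 70 and 77 fragments, with 95% Poisson intervals of 84.1 to 125, 54.6 to 88.4 and 60.8 to 96.2. These intervals, like all others below, cover counting error only. ID1 stood at a mean percentile of 52.0 ± 11.6 (SD, n = 3), the only member near the middle of the target genes. The 3 summits fell within 17 bp of each other in the coding part of the exon, 107, 113 and 124 bp downstream of a start. A separate weaker peak lay upstream in A (summit at -725 bp, fold enrichment 9.43) and B2 (-763 bp, 5.53). In B1 a single peak of 1424 bp covered both places. The lncRNA gene ENSG00000289875 starts 157 bp upstream of ID1 on the opposite strand, and the window of either gene takes in the same peak.

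ID2, which besides E proteins can bind the retinoblastoma protein, had separate peaks of similar size at its outer and inner starts (ENSG00000115738, chromosome 2, 8818975 to 8824591, plus strand). At the outer start, at 8818975, fold enrichment reached 25.3, 13.3 and 11.5 in these lists, with summits 239, 218 and 234 bp downstream. At the inner start, at 8822186, it was 19.5, 15.3 and 13.1, with summits 131, 160 and 168 bp downstream. The outer peak was thus the higher of the pair in A, and the inner one in B1 and B2. The log2 difference of outer minus inner was 0.38, -0.21 and -0.19, on average -0.01 ± 0.33 (SD, n = 3), so the starts did not differ beyond the spread between replicates. The outer summits held 64, 38 and 34 fragments and the inner ones 49, 44 and 39, and the Poisson intervals of each pair overlapped. A further, weak peak was called upstream of the inner start in each list, at a fold enrichment of 5.84, 4.09 and 4.93. ID2-AS1, an antisense lncRNA gene, has 10 of its 12 starts within 1 kb of a start of ID2, the nearest at 8 bp, and signal of the overlapping starts cannot be told apart. By its stronger peak in each list ID2 stood at a mean percentile of 33.0 ± 3.19.

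ID3, known for its part in lymphocyte development, showed a peak at its start and a region of like signal beyond its end (ENSG00000117318, chromosome 1, 23884417 to 23885992, minus strand). The promoter peak reached a fold enrichment of 20.7, 15.7 and 15.8 in replicates A, B1 and B2, which placed it at 33.8 ± 10.1 on the percentile scale. Its summits lay 79, 82 and 34 bp downstream of an annotated start, within coding sequence. In B1 and B2 a smaller peak was called upstream of the gene (summits at -282 and -313 bp, fold enrichment 6.36 and 5.18), where A had a single peak of 770 bp. The downstream region (23880990 to 23881855) lay outside all TSS windows, 4293 bp from the nearest start of ID3 and 3867 bp from that of another gene, the lncRNA ENSG00000235052. Fold enrichment there reached 29.6, 12.4 and 14.1. It was the higher of the pair in A only. The log2 difference of region minus promoter had a mean of 0.01 ± 0.45 (SD, n = 3). The region and the promoter held 75 fragments each in A, 43 against 45 in B1, and 42 against 47 in B2, with overlapping Poisson intervals. Among the 1316 regions that all replicates shared away from TSS windows, it stood at a mean percentile of 88.3. The 101 bases around its summit in A (chr1:23881223-23881323, plus strand) are shown because no transcript is annotated there, and 80.2% of them are G or C.
ID3 downstream region: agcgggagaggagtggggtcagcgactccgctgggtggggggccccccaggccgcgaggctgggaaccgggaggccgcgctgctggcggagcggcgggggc

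ID4, best known from neural progenitors, had the smallest spread of log2 fold enrichment over the replicates among the 6 genes (ENSG00000172201, chromosome 6, 19837601 to 19842428, plus strand). At its only annotated start, fold enrichment reached 12.0, 14.7 and 11.5 in replicates A, B1 and B2, with summits 103, 83 and 83 bp downstream in the UTR. A weaker peak was called upstream in A (-410 bp, 7.79) and B1 (-484 bp, 4.43), and downstream in B2 (594 bp, 3.94). ID4 was the only member whose value in A lay below the mean of B1 and B2. The log2 fold enrichment in A minus the mean of B1 and B2 was -0.12 for ID4, against a median of 0.80 over all target genes and a 5th percentile of 0.16, which placed ID4 at percentile 1.41. The summits held 51 (38.0 to 67.1), 42 (30.3 to 56.8) and 34 (23.5 to 47.5) fragments. The background expected at that summit was 3.35 fragments in A, where the commonest value of the list was 1.57, and 1.93 and 2.04 in B1 and B2, the commonest values of theirs. The part of the background in the low value of A was not tested. The mean percentile of ID4 was 21.5 ± 13.3, the widest spread of the 6 genes. It stood at 7.39 in A against 33.8 in B1 and 23.2 in B2.

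A stronger peak lay in the neighborhood of ID4 (merged region 19805043 to 19805512). Its summit in A was at -32316 bp from the ID4 start and 227 bp from a start of LNC-LBCS. That lncRNA gene lies on the opposite strand and has another start 1710 bp from that of ID4. The distant peak reached a fold enrichment of 30.7, 20.5 and 21.0. It exceeded the peak at the ID4 start in 3 of 3 replicates, by 0.90 ± 0.44 on the log2 scale (SD, n = 3). In recovered fragments the log2 excess was 0.66 ± 0.20. This pair was picked after its values were seen, so no test is given. The 101 bases around the summit in A (chr6:19805235-19805335, plus strand) hold a single match, to CAGAC.
LNC-LBCS start: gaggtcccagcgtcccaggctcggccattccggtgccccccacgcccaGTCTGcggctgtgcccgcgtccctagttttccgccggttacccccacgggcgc

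**Figure D2:**
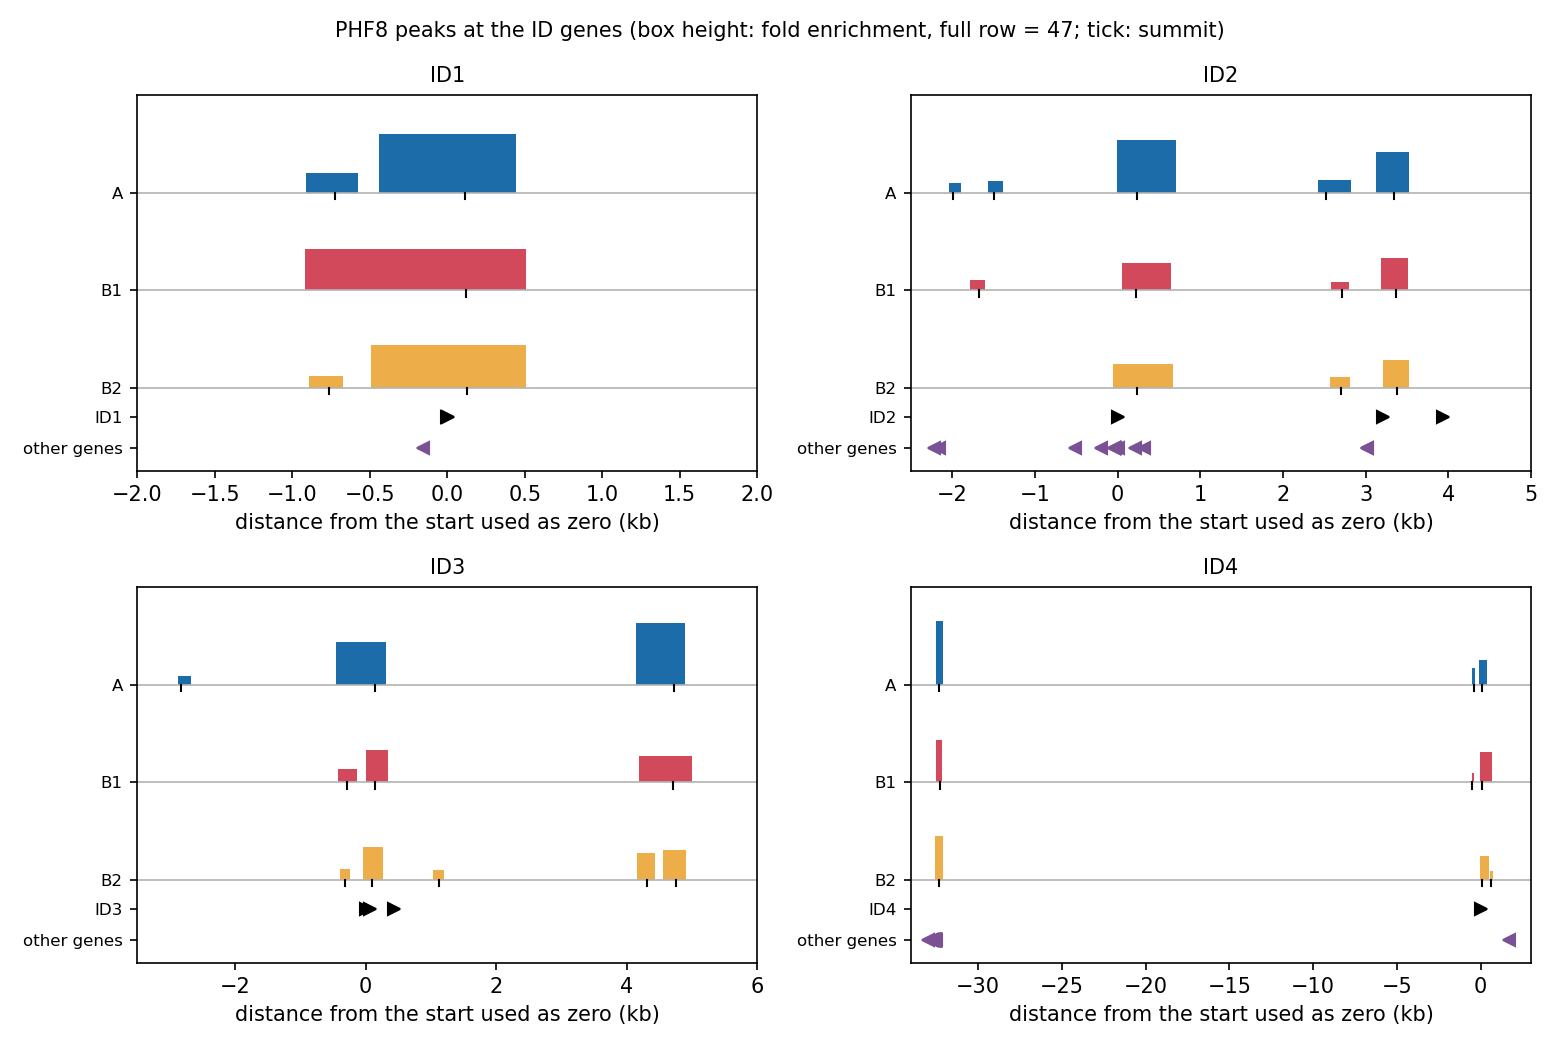
Peaks of A, B1 and B2 at the 4 ID loci by distance from the most upstream ID start, in kb and in the direction of the gene. Box width is peak width, box height is fold enrichment, ticks mark summits, black arrowheads mark starts of the ID gene and purple ones starts of the neighboring lncRNA gene. Peaks of similar height at the outer and inner starts of ID2, the region beyond ID3 and the tall peak far upstream of ID4 appear in all 3 rows.

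TGIF1 was marked at several starts, and its signal was spread over more peaks than at the other members (ENSG00000177426, chromosome 18, 3411606 to 3459976, plus strand). Its 23 transcripts fall into 8 TSS clusters. The lists held 10 peaks in its windows in A, 6 in B1 and 5 in B2, where the median protein-coding target had 1. They covered 2658 bp ± 752 (SD, n = 3). More windows allow more peaks, and the part of the windows in this number was not tested. Among the 1536 protein-coding targets with at least 8 clusters, TGIF1 stood at a mean percentile of 99.2 for the number of peaks and 95.6 for the bases covered. The strongest peaks lay at the cluster from 3449411 to 3450210, where 8 transcripts start, and replicates A, B1 and B2 reached a fold enrichment of 20.6, 11.9 and 8.54. Their summits fell 118, 54 and 123 bp downstream of a start, in the UTR. The fragment counts were 52 (38.8 to 68.2), 34 (23.5 to 47.5) and 25 (16.2 to 36.9).

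The other TGIF1 starts were weaker or without a peak. At the start at 3448497 fold enrichment reached 9.64, 9.08 and 7.37, and at the cluster from 3451591 to 3451722 it was 11.3, 5.00 and 3.95. The main cluster exceeded the latter by 1.08 ± 0.20 on the log2 scale (SD, n = 3) and the former by 0.57 ± 0.47. It was called the main one because it held the strongest peak of each list, so the direction in fold enrichment was set by that choice. In B2 the fragment counts at the main cluster and at the start at 3448497 were 25 and 26. At the start at 3447607 the nearest peaks were 15.2 in A (summit at 441 bp) and 4.93 in B2 (summit at -121 bp). B1 had a peak of 5.76 at nearly the same place as that of A, with summits at 3448054 and 3448048. The B1 summit lay nearer to the start at 3448497, at -443 bp, so it was counted for that start. The far upstream starts, which include the 5′ end of the gene record, had a single weak peak in A (fold enrichment 5.45, 13 fragments) and none in B1 or B2. No list held a peak in the windows of the cluster at 3453772 or of the cluster from 3455150 to 3455412. TGIF1 is therefore counted as a target through its inner starts, and when the outermost start alone stood for the gene it was not one. Under that choice 54.0% of protein-coding genes were targets. By its strongest peak TGIF1 stood at a mean percentile of 19.0 ± 5.70.

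TGIF2 had a broad peak over its outer starts (ENSG00000118707, chromosome 20, 35201891 to 35222353, plus strand). The peak was 1865 bp wide in A and 1763 bp in B2, wider than 99.2% and 99.4% of all peaks of those lists, while in B1 the same stretch was called as adjacent peaks of 932 and 955 bp. In replicates A, B1 and B2 it reached a fold enrichment of 19.1, 9.99 and 12.9, which gave a mean percentile of 21.5 ± 6.72. The summits in A and B2 lay at -12 and -43 bp from a start at 35202126, and the one in B1 at -234 bp from the start at 35201891. They spread over 457 bp. The antisense lncRNA gene DLGAP4-AS1 begins 97 bp upstream, and TGIF2-RAB5IF, a readthrough gene, starts 1 bp from a TGIF2 start, so the same peaks fall in the windows of these genes. No list held a peak in the windows of the innermost TGIF2 cluster, from 35207210 to 35207328.

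The start of RAB5IF, the gene joined to TGIF2 in the readthrough transcript, bore higher peaks than TGIF2 itself. Fold enrichment there reached 28.7, 34.4 and 30.5 in replicates A, B1 and B2, with 162 (138 to 189), 114 (94.0 to 137) and 105 (85.9 to 127) fragments at the summit. It exceeded the TGIF2 peak in 3 of 3 replicates, by 1.21 ± 0.60 on the log2 scale (SD, n = 3) and by 1.45 ± 0.09 on the log2 scale of recovered fragments. This pair, too, was picked with its values known.

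**Figure D3:**
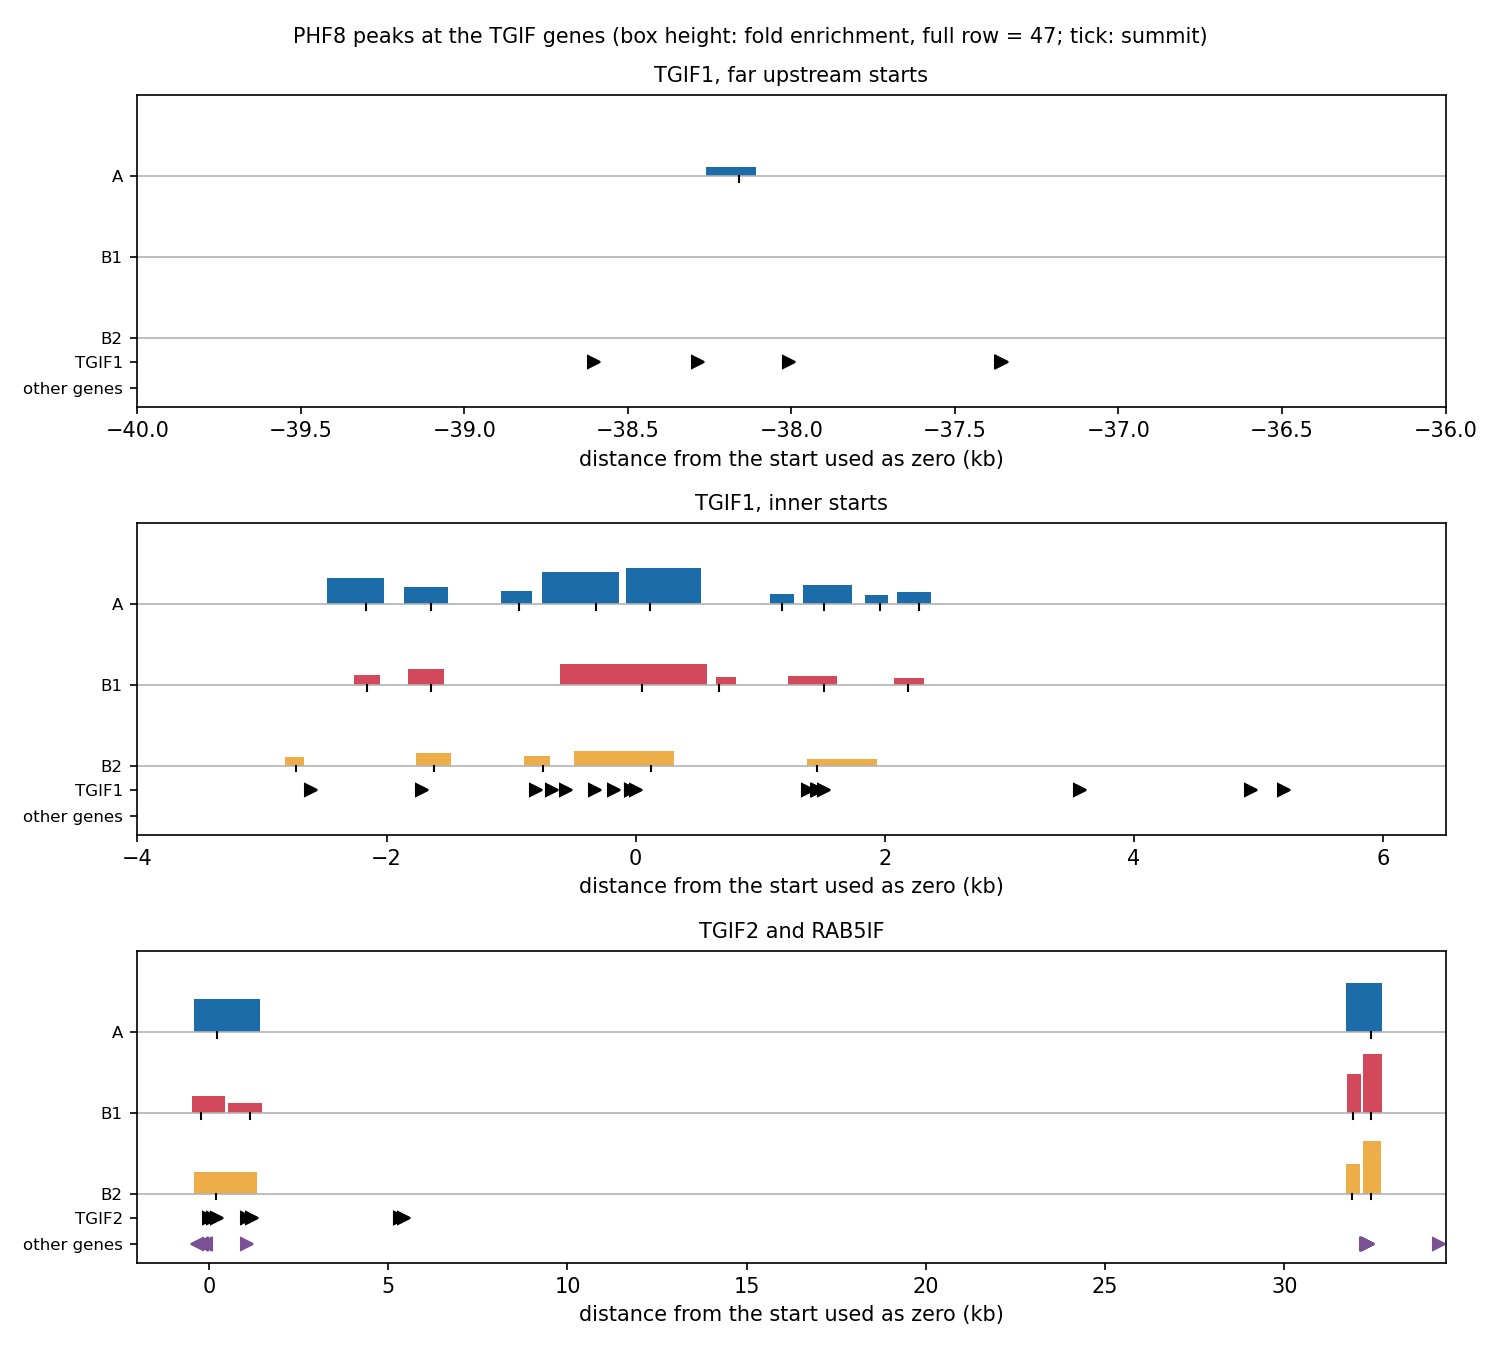
Peaks of A, B1 and B2 at TGIF1 by distance in kb from the innermost start of its main cluster (upper and middle rows) and at TGIF2 by distance from its outermost start (lower row). Boxes, ticks and black arrowheads are drawn as for the ID genes, and purple arrowheads mark starts of RAB5IF, TGIF2-RAB5IF and DLGAP4-AS1. The far upstream TGIF1 starts have a low box in A only, the inner starts a row of boxes in every replicate, and the RAB5IF boxes rise above those of TGIF2.

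**Figure D4:**
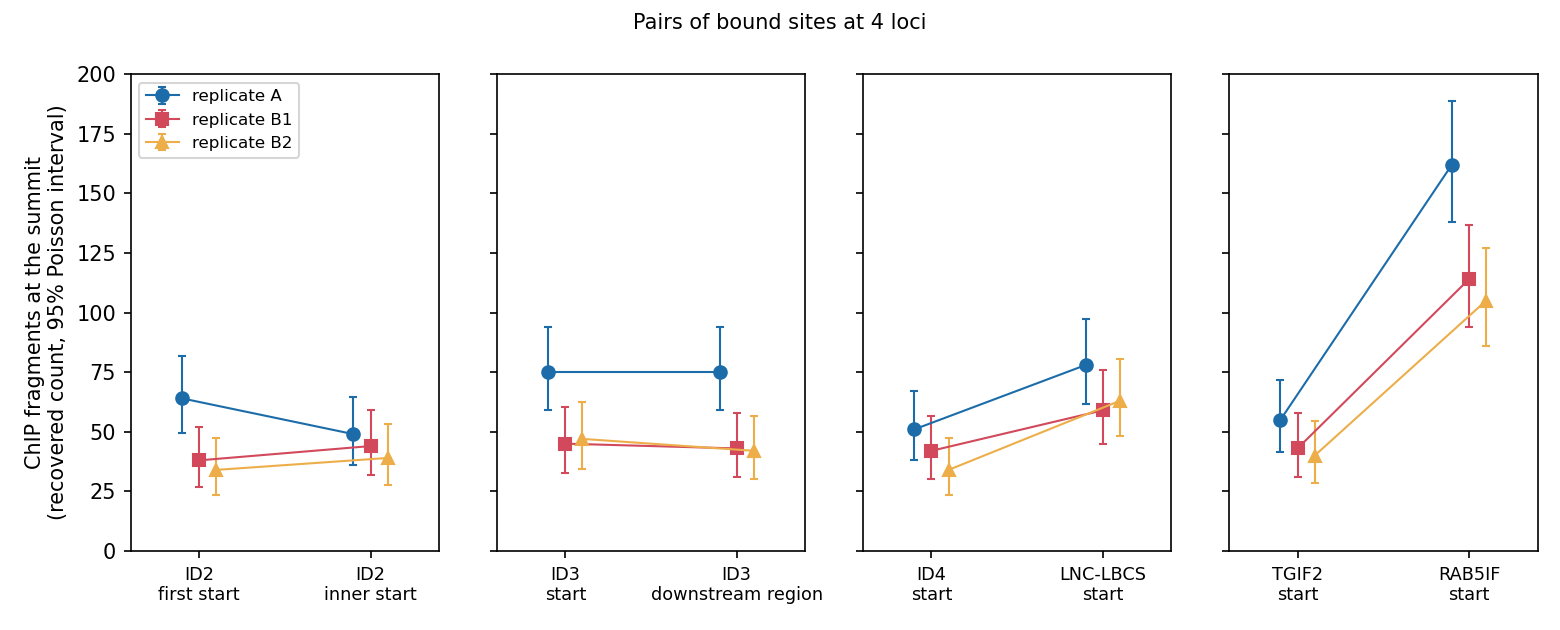
ChIP fragments at the summits of 4 pairs of sites, as recovered counts with 95% Poisson intervals, joined by a line for each replicate. From the outer to the inner ID2 start the line falls in A (64 to 49) and rises in B1 and B2, from ID3 to its downstream region it is level in A and falls slightly in B1 and B2, and in all replicates the lines rise from ID4 to the LNC-LBCS start and from TGIF2 to the RAB5IF start.

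The order of the 6 genes was read from mean log2 fold enrichment over the replicates. ID1 led with 4.50 ± 0.28 (SD, n = 3), followed by ID3 with 4.11 ± 0.23, ID2 with 4.11 ± 0.49, TGIF2 with 3.75 ± 0.47, TGIF1 with 3.68 ± 0.64 and ID4 with 3.66 ± 0.19. ID1 was above each of the other 5 genes in every replicate. It exceeded ID3 by 0.39 ± 0.06 and was the higher gene in 3 of 3 replicates. ID3 and ID2 changed places between replicates, as did TGIF2 with TGIF1 and TGIF1 with ID4. ID2 exceeded TGIF2 in all replicates by 0.35 ± 0.30. Of the 15 pairs, 11 had the same direction in every replicate, and in 9 of these the mean difference was also larger than its SD. For such a pair the p of an exact two-sided permutation test that flips signs was 0.25 (Benjamini-Hochberg adjusted over 15 pairs 0.341), the smallest that 3 replicates allow, so no pair could pass a threshold of 0.05.

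At the strongest promoter peak, the ID genes had a higher fold enrichment than the TGIF genes in B1 and B2 and about the same in A. By the bases that peaks covered in the windows, the TGIF genes stood above all ID genes. TGIF1 and TGIF2 had means of 2658 and 1838 bp, and the ID genes ran from 681 bp (ID3) to 1317 bp (ID2). The part of the number of windows in this was not tested. The mean log2 fold enrichment of the 4 ID genes minus that of the 2 TGIF genes was 0.05, 0.57 and 0.51 in replicates A, B1 and B2, on average 0.38 ± 0.29 (SD, n = 3). ID1, ID2 and ID3 had higher means than both TGIF genes, and ID4 differed from neither beyond the spread. When peaks were restricted to a fold enrichment above 10, ID1, ID2, ID3 and ID4 remained targets and both TGIF genes dropped out, against 49.6% of protein-coding genes that were targets at that level. TGIF2 missed this cutoff only in B1, at 9.99, and its 12.9 in B2 was above the 11.5 of ID4, so the cutoff does not separate the families cleanly. Above 20 no member was a target, against 23.8% of protein-coding genes. ID1 came nearest, with 19.7 in B1.

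By TSS cluster, 12 of 17 clusters of the members had a peak within their windows in every replicate, against 23.5% of all 69701 clusters of protein-coding genes. Each of the single clusters of ID1, ID3 and ID4 was among them, with 3 of 3 for ID2, 4 of 8 for TGIF1 and 2 of 3 for TGIF2. Windows of neighboring clusters overlap. Counting only peaks whose summit was nearest to the cluster itself left 9 clusters, with 2 for ID2, 3 for TGIF1 and 1 for TGIF2.

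The strongest peaks lay in sequence rich in G and C, like those of target genes in general. Within 250 bp of the summit in A, the share of G and C ran from 63.5% for ID1 to 74.1% for ID2 and TGIF2, beside a median of 68.3% over all target genes. By this share ID1 and ID3 stood at percentiles 28.9 and 35.8 of the target genes, TGIF1 at 51.2, ID4 at 65.7, and ID2 and TGIF2 at 78.2. The observed over expected ratio of CpG was lowest in ID3 (0.755) and highest in ID4 (1.03), which stood at percentile 95.1 of the target genes, and the median over all targets was 0.835.

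Partners and relatives of the members were counted from lists of 44 genes. All 3 E protein genes, the dimerization partners of ID proteins, were bound, where TCF12 stood at a mean percentile of 58.2 ± 7.63 (SD, n = 3), TCF3 at 51.1 ± 16.6 and TCF4 at 26.6. All 10 BMP receptor and SMAD genes were bound as well. They ran from SMAD9, a receptor-activated SMAD, at 2.29 ± 2.03 to BMPR1A, a type I receptor, at 89.2 ± 7.03 and SMAD5, a transducer of BMP signals, at 92.9 ± 1.52. The 9 genes of SMADs, corepressors and other partners of TGIF were all bound, led by RXRA, a nuclear receptor, at 64.4 ± 7.19 and the corepressor CTBP1 at 58.3 ± 6.20, with SMAD3 lowest at 15.8 ± 6.93. These counts are read against the 60.2% of all protein-coding genes given above.

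Other TALE homeobox genes were bound in 10 of 17 cases (58.8%), close to that background. PKNOX1 (45.2 ± 6.69) and MEIS1 (41.4 ± 6.16) stood highest among them. Among the 7 that were not bound were IRX1, IRX2, IRX4, IRX6, PKNOX2 and TGIF2LX, a testis-expressed relative of TGIF2. Of the tissue bHLH factors, MYOD1, MYF5, NEUROD1 and NEUROG1 had no promoter peak in any replicate. The median percentile of the bound genes was 51.1 for the E proteins, 39.2 for the BMP receptors and SMADs, 44.7 for the TGIF partners and 20.9 for the TALE genes, beside 27.2 for the 6 members.

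**Figure D5:**
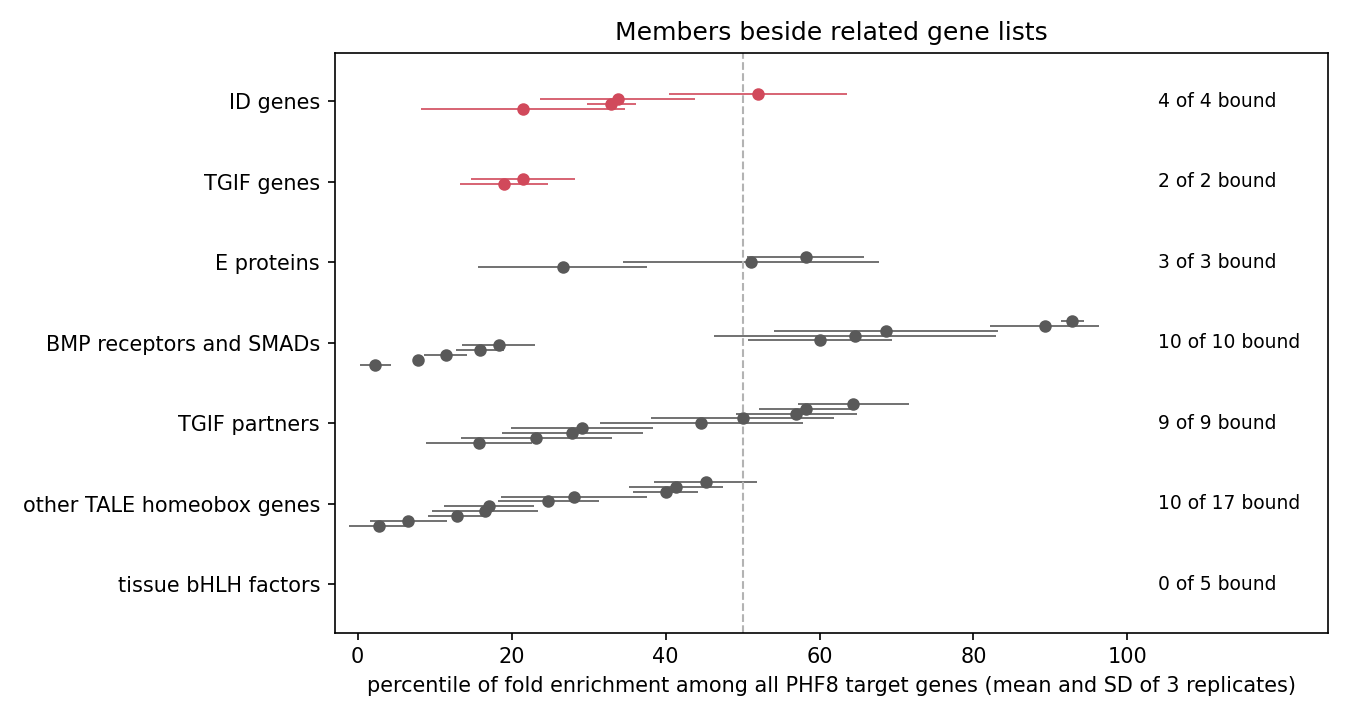
Mean percentile of fold enrichment among all PHF8 target genes (points, with the SD over 3 replicates) for the ID and TGIF genes and for the lists of related genes, with the number bound at the right. The dashed line marks the 50th percentile, and 5 of the 6 members sit below it, while the BMP list spans 2.29 to 92.9.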

How the data were processed

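The authors aligned reads of each PHF8 ChIP and input sample to hg19 with Bowtie2 and called narrow peaks with MACS for each replicate separately against input, without pooling (bcl2fastq and Picard are also named in the submitters' processing notes). Tool versions, the handling of duplicates and read totals are not given in the sources used here. The deposited lists give fold enrichment as a ratio to the local background (each raised by 1 fragment), the p-value and q-value as −log10 values, a score derived from the latter (not used) and the summit offset. The inputs entered only through these values.

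Starts were the 5′ ends of all transcripts of GENCODE release 44 lifted to GRCh37, and 0 peaks ran past a chromosome end of that build. A gene was a target if the 1 kb windows around its starts met a peak by at least 1 bp in each of the 3 replicates, after the window and replicate rule of the study. Every deposited peak had a fold enrichment of at least 2.07 and a q-value of at most 0.0482, so the fold cutoff of 1.5 in the methods removed none, and the q-value cutoff of 0.05, printed there as a lower limit, was read as an upper one. The gene annotation behind the targets of the study is not given in the sources used here, and the target counts here are not those of the study. Starts less than 500 bp apart formed 1 cluster. Fragments at a summit were solved from fold enrichment and p-value and came out whole for 100% of peaks within 0.001. The solver was tested on simulated data. Pairs of genes were compared by an exact sign-flip permutation test. Python 3.11.15, SciPy 1.17.1, pandas 2.3.3 and NumPy 2.4.6 were used.

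The members, lists and cutoffs were chosen with earlier results of these data known. Beyond the members, the genes named were, for each list, up to 2 bound genes of the highest percentile, the lowest one and up to 6 unbound ones (some are not reported here), with neighbors within 10 kb and, for each member, the most alike target. RAB5IF, the downstream region of ID3 and the search for TATAA were added after values were seen. Alternatives were stricter q-value and fold cutoffs, other windows, 1 TSS per gene, summits within the window, 2 of 3 replicates, recovered fragments, percentiles among protein-coding genes and leaving out each replicate.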

Additional observations from a re-analysis of the deposited data

How the results depend on the processing

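The ID minus TGIF difference was the only summary value for which a change of direction was checked. It stayed positive under every alternative in which it was recomputed, but most of these could not reverse it. With other windows and with summits within the window it was the same 0.38. It was positive in each replicate, so leaving one out could not change its sign. With 1 TSS per gene, without TGIF1, it was 0.31. In all, 44 of 49 recomputed counts and summary values stayed within the spread between replicates or, for counts, within 1.5 times. These include values that could not fall by construction, such as the counts with 2 of 3 replicates or with a replicate left out. The number of bound genes was 6 under all alternatives except 1 TSS per gene (5, without TGIF1) and the higher cutoffs, where a stricter cutoff keeps fewer peaks. Above a fold enrichment of 10 it was 4 genes with 6 of the 12 bound clusters, and above 20 it was 0 genes and 0 clusters. With 1 TSS per gene, 5 clusters were bound and 6 pairs of genes had the same direction in all replicates, since fewer starts and genes enter by construction. Leaving out each replicate in turn gave 6 bound genes, 12 bound clusters and 12 to 13 pairs of the same direction. What held in all 3 replicates also holds in any 2, so these counts could not fall and are no check. The median percentile was then 27.2 to 31.0. The ID minus TGIF difference was 0.28 (without B1) to 0.54 (without A) on the log2 scale. With recovered fragments that difference was 0.43. Of single genes, only ID2 moved by more than its spread, from percentile 33.0 to 27.7 with 1 TSS per gene and 25.9 with recovered fragments. Read totals were not used here, and summits with fewer than 8 to 10 fragments were not detectable. ChIP and input samples could not be compared as pairs because the groups share only 1 replicate label, A. Genes and sites were compared within each ChIP replicate.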

Other observations

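For each member, the protein-coding target with a gene symbol and the most similar fold enrichment over the 3 replicates was sought by Euclidean distance on the log2 scale, leaving out genes that share its peak. It was CCDC9 for ID1 (28.7, 19.9 and 21.0 in A, B1 and B2, distance 0.03), TPX2 for ID2 (25.6, 15.2 and 13.2), NAV1 for ID3 (20.6, 16.1 and 15.6), SRSF8 for ID4 (12.5, 14.7 and 11.5), SH3GL2 for TGIF1 (20.3, 11.6 and 8.87) and PDZRN3 for TGIF2 (19.9, 10.1 and 12.9).

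Among peaks outside all TSS windows, 1 region 8880 bp upstream of ID3 was shared by the 3 lists at a fold enrichment of 7.40, 4.09 and 4.27. A region 56642 bp downstream of the ID1 start had 12.5 in A and 4.82 in B1 and was not listed in B2. Peaks of a single list outside the windows lay at -11484 bp (B2, 4.33) and 5580 bp (B1, 4.44) from ID1, 2826 bp upstream of ID3 (A, 4.32) and 58850 bp downstream of ID4 (A, 5.45).

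The neighbors MIR3193, BOD1P1 and RPL21P127 start 1897 bp from ID1 and 2289 and 4790 bp from TGIF1.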
